A study of Mus musculus with 24 samples.

Results

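The 40 genes described here are expressed by myeloid cells, the blood lineage of neutrophils, monocytes and macrophages, and were taken by symbol from a list of such genes. They fall into 11 roles, among them neutrophil granule proteins, receptors, integrins, the phagocyte oxidase and lineage transcription factors. Of the 40, 38 had a row in each of both expression tables used, which held 18052 genes (sorted cells) and 20889 genes (bulk tissue and factor arrays). The transcription factor gene Cebpe and the secreted neutrophil gene Retnlg had no row and are named only.

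The study profiled the distal femur of C57BL/6J mice on 24 arrays and asked how skeletal stem cells differ between newborn joints, injured adult joints and healthy adult joints. Microfracture is a surgical injury in which holes are made through the joint surface into the marrow. Stem cells, labelled mSSC, were sorted by the gate CD45−TER119−TIE2−ITGAV+THY1−6C3−CD105−, which excludes cells bearing the leukocyte antigen CD45 and the erythroid antigen TER119. Sorted cells came from newborn mice at postnatal day 3 (4 arrays), microfractured adults of 9 to 25 weeks (3 arrays) and uninjured adults of 9 to 25 weeks (3 arrays). A further 3 arrays held sorted cells from microfractured adults, 1 array each for treatment with BMP2, VEGFR1 or the vehicle PBS. Crushed bulk bone came from newborns (3 arrays), microfractured adults (3 arrays) and uninjured adults (5 arrays) of the same ages. Between 500 and 1000 cells went into each sorted RNA sample, and all RNA was amplified in successive rounds. The labels do not say whether replicates were separate animals or pools, and each p-value therefore reflects the spread among the deposited samples only, part of which could be technical.

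Neutrophils are made in bone marrow, and their granule genes are switched on in sequence. Primary granule enzymes such as myeloperoxidase and elastase are transcribed in promyelocytes, secondary and tertiary granule proteins such as lactoferrin and neutrophil collagenase in later myelocytes and metamyelocytes, and calprotectin and surface receptors in the most mature cells. PU.1, encoded by Spi1, and the C/EBP factors drive this programme. Macrophages and osteoclasts come from a related branch and share many receptors and adaptors with neutrophils.

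Before the member genes themselves, the genes of the gate's antigens, the low end of the arrays and markers of other cells are given by group. Ptprc, which encodes CD45, averaged 58.7 ± 21.1 in newborn cells (SD, n = 4), 651 ± 132 in microfractured cells (SD, n = 3) and 3462 ± 367 in uninjured cells (SD, n = 3), in intensity units of the Affymetrix MAS5 summary. Tek, which encodes TIE2, averaged 84.7 ± 21.8, 110 ± 41.0 and 566 ± 387, and Itgav, the antigen the gate keeps, 830 ± 74.9, 1339 ± 259 and 1050.1 ± 384 in the same order of groups. Eng, which encodes CD105, averaged 132 ± 42.5, 129.7 ± 25.7 and 452 ± 53.3, and Thy1 stayed under 90 on every array. Enpep, which encodes 6C3, had another order, at 60.2 ± 13.5 in newborn cells, 401 ± 142 in microfractured cells and 172 ± 47.4 in uninjured cells, and was higher after microfracture than in uninjured cells (1.13 ± 0.36, limma adjusted p = 0.032). A set of 62 olfactory and vomeronasal receptor genes, which bone does not usually express, had a median of 17.1 to 27.5 on newborn arrays, 13.4 to 47.6 on microfractured arrays and 119 to 216 on uninjured arrays. Their 90th percentile was 61.3 to 118, 52.4 to 162 and 379 to 627 in the same order, and 18 to 25 of the 38 member genes read below it on newborn arrays, 6 to 12 on microfractured arrays and 6 to 11 on uninjured arrays. Erythroid genes (15 with a row) summed to 1520 to 2375, 4299 to 7281 and 18484 to 25074, and B and T lymphocyte genes (19 with a row) to 1201 to 1566, 1908 to 2622 and 5889 to 7119, again in newborn, microfractured and uninjured cells. The sum over skeletal cell genes (11 with a row) differed less between the groups, at 48408 to 51678, 53173 to 72239 and 53828 to 77256, the newborn arrays again lowest. That sum covers changes in both directions. Relative to uninjured cells, 4 of the 11 were higher and 7 lower in newborn cells (limma adjusted p under 0.05), where 54.6% of all genes were called. Matn1 read 7398 to 8736, 16.2 to 80.9 and 158 to 302 in newborn, microfractured and uninjured cells. The part these differences play in the values below was not tested.

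After microfracture, 34 of the 38 genes fell relative to uninjured sorted cells when every gene of the table was tested, and none rose. By the same test (limma, adjusted p under 0.05 over all genes) 26% of all 18052 genes fell and 34.6% were called in either direction. Among genes that passed a filter on low intensity, 30 of 32 members fell, against 33.1% of 10893 genes called and 19.8% that fell. Of those 32, Prtn3, Csf1r, Ncf1, Ncf4 and Rac2 passed the filter through uninjured arrays alone and so had to differ. Itgam, Csf3r, Fcgr1, Cd68, Cd52 and Vav1 did not pass it. The median log2 difference over the 38 members was -1.76, beside -0.46 over all genes, both without the filter. The olfactory and vomeronasal receptor genes also read lower after microfracture, with array medians of 13.4 to 47.6 against 119 to 216 on uninjured arrays. How much of the members' difference goes with that shift was not tested. The microfractured and uninjured arrays did not overlap for 35 of the 38 members, all lower after microfracture, where 33.1% of all genes were lower without overlap. Leaving out uninjured replicate 1 or replicate 2 left 27 members past the filter, of which 17 fell in either case. In these fits 18.4% and 19.1% of the genes tested were called. Centring each array on its median moved the median of all genes past the filter from -0.04 to 0.61. It left 22 of 32 members lower and none higher, where 53.3% of the genes tested were called.

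Among the members that passed the filter, the 5 primary granule genes had the largest falls. Mpo encodes myeloperoxidase, which makes hypochlorous acid in the phagosome. Its intensity was 1178, 108 and 57.3 on the 3 microfractured arrays, against 1829, 2288 and 1279 on the 3 uninjured arrays. The first microfractured array lay just under the lowest uninjured one, while the other two were far below. The log2 difference was -3.00 ± 0.75 (SE, limma adjusted p = 0.0105).

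Elane, neutrophil elastase, read 420.3, 13.4 and 24.7 on the microfractured arrays, against 523, 943 and 639 on the uninjured arrays. Prtn3, the related serine protease proteinase 3, read 249, 4.59 and 3.80 after microfracture, against 338, 533 and 278 in uninjured cells. Ctsg, the granule protease cathepsin G, read 342, 51.5 and 13.5 after microfracture, against 315, 684 and 508 in uninjured cells. Elane and Prtn3 did not overlap between the groups, whereas for Ctsg the first microfractured array lay above the lowest uninjured array. The log2 differences were -3.11 ± 0.81 for Elane (limma adjusted p = 0.0123), -3.02 ± 0.86 for Prtn3 (0.0185) and -2.47 ± 0.78 for Ctsg (0.0283). Ms4a3, a membrane protein of granulocyte and monocyte progenitors, fell by 2.23 (adjusted p = 0.00850). The uninjured values of Elane, Prtn3 and Ctsg overlapped the 90th percentile of the receptor genes given above, and those of Mpo and Ms4a3 lay above it on every uninjured array.

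These falls rested unevenly on the 3 microfractured arrays. Each array is therefore given as a percentage of the uninjured mean. Over the 5 primary granule genes, microfractured replicate 1 stood at 59.9% to 68.1%, replicate 2 at 1.20% to 12.4% and replicate 3 at 0.99% to 8.86%. Over the 5 secondary and tertiary granule genes the same arrays stood at 33.2% to 54.6%, 10.8% to 28.0% and 25.7% to 44.2%. Replicate 1 was thus the microfractured array closest to the uninjured mean for every primary granule gene, with replicates 2 and 3 far below. For the later granule genes the 3 arrays lay closer together. Replicate 1 was the highest of the 3 microfractured arrays for 32 of the 38 members.

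**Figure D1:**
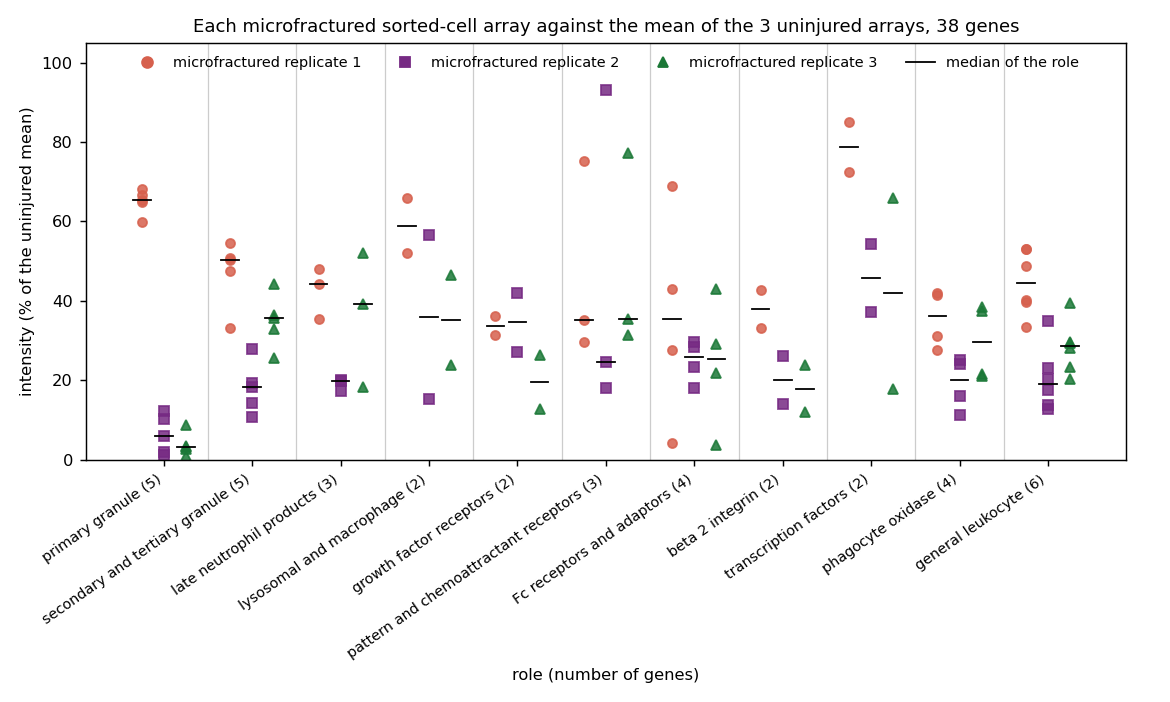
Intensity of each member gene on each microfractured sorted-cell array, as a percentage of the mean of the 3 uninjured arrays, by role (number of genes in brackets). Bars mark the median of the role on each array. The primary granule genes of replicate 1 lie between 59.9% and 68.1%, and those of replicates 2 and 3 reach at most 12.4% and 8.86%.

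Without replicate 1, the microfractured minus uninjured difference of Mpo was -4.21 (limma adjusted p = 9.6e-05), that of Elane -4.33 and that of Prtn3 -4.25. Without replicate 2, Prtn3 and Ctsg no longer passed the threshold (limma adjusted p = 0.057 and 0.072). Without replicate 3, Elane, Prtn3 and Ctsg did not (0.054, 0.073 and 0.116). Leaving out replicate 1 left 30 of 32 members lower, the same number as with all arrays, where 38.7% of genes tested were called. Without the filter it left 34 of 38 lower, where 39.4% were called, a setting added after the data had been seen. On replicate 1 the osteoclast genes summed to 10242, beside 4872 and 6321 on replicates 2 and 3. Most of that sum was Ctsk (7068, beside 2426 and 4605) and Acp5 (1628, beside 231 and 963). Dcstamp (17.9, beside 92.1 and 23.4), Mmp9 (751, beside 1851 and 506) and Tnfrsf11a (6.01, beside 19.2 and 35.6) were not highest on replicate 1. The other genes of that list were. Erythroid genes summed to 7281, beside 4359 and 4299. Mast cell and basophil genes summed to 1148 on replicate 1, beside 288 and 101, and endothelial genes to 1082, beside 606 and 396. Replicates 1 and 2 were closer for megakaryocyte genes (1085, beside 1064 and 527) and lymphocyte genes (2622, beside 2296 and 1908). Skeletal cell genes were also highest on replicate 1 (72239, beside 53173 and 56740). So was the median of the olfactory and vomeronasal genes (47.6, beside 38.8 and 13.4). Whether the make-up of the sorted sample accounts for the difference between these arrays was not tested.

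**Figure D2:**
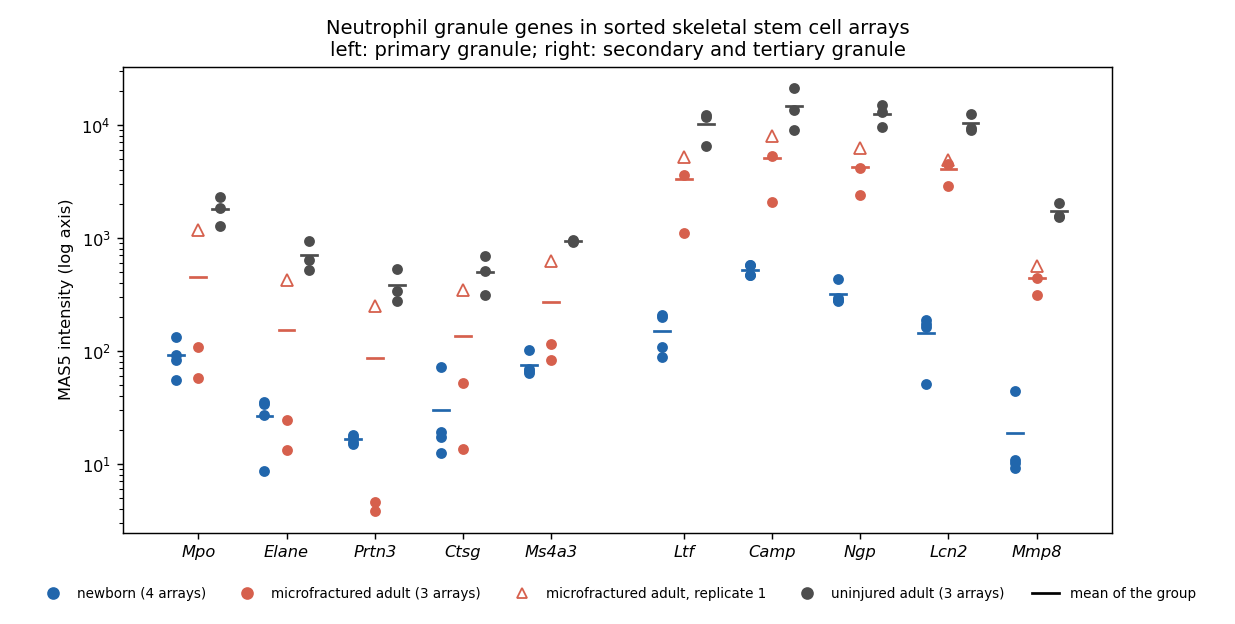
Intensity (log scale) of neutrophil granule genes on every sorted-cell array, with newborn, microfractured and uninjured arrays from left to right. Each point is 1 array. Mpo, Elane, Prtn3 and Ctsg split the microfractured arrays into 1 high and 2 low values, whereas Ltf, Camp and Ngp place all 3 between the other groups.

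The promoters of the granule genes are described because both Spi1 and Cebpa, which encode the factors known to bind such promoters, are among the genes measured. Of the 40 genes, 31 had a promoter in the RefSeq table (build GRCm38.p6), each with 250 bases before and 50 bases after the gene start. The letters GAGGAAG, a PU.1-type core, were searched on both strands (CTTCCTC on the other), and occurred in 14 of the 31 member promoters (45.2%), against 4477 of all 32851 promoters (13.6%). They were present in 4 of the 5 primary granule promoters and 2 of the 5 secondary and tertiary ones. The letters TTNNGCAA, a C/EBP-type core (TTGCNNAA on the other strand), occurred in 9 of the 31 member promoters (29%), against 3547 of all promoters (10.8%). They were present in 1 of the 5 primary granule promoters, that of Ms4a3, and in 4 of the 5 secondary and tertiary ones, those of Ltf, Ngp, Lcn2 and Mmp8. No match of one kind overlapped a match of the other. A match is a description of letters, not of binding.

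The promoters of Ms4a3 (C/EBP-type match only), Camp (neither kind), Lcn2 and Mmp8 (both kinds) are not shown. Those shown therefore divide more cleanly by kind of match than the granule genes as a whole. The promoters below are written 5′ to 3′ on the strand of the gene, with matches in capitals. In the first 4 the capitals are GAGGAAG, beginning 247 and 224 bases before the start of Mpo (chr11:87793534-87793833, plus strand), 85 before that of Elane (chr10:79886062-79886361, plus strand), 95 before that of Prtn3 (chr10:79879417-79879716, plus strand) and 216 before that of Ctsg (chr14:56102525-56102824, minus strand). In the last 2 the capitals are the C/EBP-type letters, beginning 75 bases before the start of Ltf (chr9:111019042-111019341, plus strand) and 138 and 11 bases before that of Ngp (chr9:110419558-110419857, plus strand), the first of these on the opposite strand.
Mpo: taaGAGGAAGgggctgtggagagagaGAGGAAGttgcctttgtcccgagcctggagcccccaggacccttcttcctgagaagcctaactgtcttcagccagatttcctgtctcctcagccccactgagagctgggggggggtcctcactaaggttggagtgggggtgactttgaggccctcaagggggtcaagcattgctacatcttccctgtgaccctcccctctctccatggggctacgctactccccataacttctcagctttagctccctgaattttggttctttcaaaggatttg
Elane: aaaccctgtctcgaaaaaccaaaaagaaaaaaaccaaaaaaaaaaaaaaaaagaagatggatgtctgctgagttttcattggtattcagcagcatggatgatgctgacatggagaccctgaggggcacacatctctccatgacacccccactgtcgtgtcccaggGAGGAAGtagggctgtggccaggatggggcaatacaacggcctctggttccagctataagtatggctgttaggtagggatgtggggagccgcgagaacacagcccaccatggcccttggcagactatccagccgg
Prtn3: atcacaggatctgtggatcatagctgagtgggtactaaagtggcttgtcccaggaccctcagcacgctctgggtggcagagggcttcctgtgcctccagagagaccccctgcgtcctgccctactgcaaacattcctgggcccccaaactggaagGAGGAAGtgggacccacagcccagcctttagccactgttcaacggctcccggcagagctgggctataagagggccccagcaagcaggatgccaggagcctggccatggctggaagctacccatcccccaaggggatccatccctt
Ctsg: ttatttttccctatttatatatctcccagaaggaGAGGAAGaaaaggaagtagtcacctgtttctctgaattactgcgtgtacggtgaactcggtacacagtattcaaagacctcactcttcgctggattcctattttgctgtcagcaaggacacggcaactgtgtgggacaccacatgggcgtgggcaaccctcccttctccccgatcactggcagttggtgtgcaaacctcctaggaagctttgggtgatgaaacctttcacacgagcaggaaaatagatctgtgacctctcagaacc
Ltf: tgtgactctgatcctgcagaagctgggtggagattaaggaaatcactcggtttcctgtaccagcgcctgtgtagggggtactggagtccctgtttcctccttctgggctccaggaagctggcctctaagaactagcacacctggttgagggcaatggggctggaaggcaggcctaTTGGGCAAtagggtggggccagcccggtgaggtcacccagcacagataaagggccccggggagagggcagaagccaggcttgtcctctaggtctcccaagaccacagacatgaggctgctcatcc
Ngp: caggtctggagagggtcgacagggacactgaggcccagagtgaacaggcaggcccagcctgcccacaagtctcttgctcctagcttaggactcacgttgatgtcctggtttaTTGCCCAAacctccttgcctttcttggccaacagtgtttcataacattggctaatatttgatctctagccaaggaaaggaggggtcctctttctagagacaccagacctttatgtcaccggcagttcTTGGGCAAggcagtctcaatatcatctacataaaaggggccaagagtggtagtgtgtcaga

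All 5 secondary and tertiary granule genes fell after microfracture, by log2 differences of -1.34 to -1.94. Ltf encodes lactoferrin, which binds iron, and read 5159, 1098 and 3608 on the microfractured arrays, against 12139, 11722 and 6539 on the uninjured arrays. Camp, the antimicrobial peptide cathelicidin, read 7975, 2075 and 5339 after microfracture, against 21239, 13586 and 8980.1 in uninjured cells. Ngp, the neutrophilic granule protein, read 6255, 2413 and 4108 after microfracture, against 14853, 13001 and 9478 in uninjured cells. For these genes replicate 2 was the lowest microfractured array and all 3 lay below every uninjured array. Ngp had the smallest adjusted p of the 3 (-1.62 ± 0.31, limma adjusted p = 0.00316), followed by Camp (-1.62 ± 0.41, 0.0108) and Ltf (-1.83 ± 0.48, 0.0133). Lcn2, lipocalin 2, which sequesters bacterial siderophores, fell by 1.34, and Mmp8, neutrophil collagenase, fell by 1.94.

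The products of late neutrophils also fell. S100a8, a subunit of the calcium-binding protein calprotectin, read 5244, 2039 and 4653 on the microfractured arrays, against 12884, 13698 and 8919 on the uninjured arrays. Its partner S100a9 read 4653, 1926 and 5021 after microfracture, against 12452, 10935 and 5613 in uninjured cells. Neither gene overlapped between the groups, and the log2 differences were -1.66 ± 0.31 (limma adjusted p = 0.00319) and -1.36 ± 0.36 (0.0137). Mcemp1, a surface protein first described in mast cells, fell by 2.07 (adjusted p = 0.00055). Lyz2, lysozyme of neutrophils and macrophages, read 8558, 2497 and 3932 after microfracture, against 18939, 15339 and 14976 in uninjured cells (-1.89 ± 0.33).

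Receptor genes were less uniform. Csf3r, the receptor for the neutrophil growth factor G-CSF, read 108, 93.7 and 44.0 on the microfractured arrays, against 600.3, 83.8 and 349.7 on the uninjured arrays. One uninjured array lay among the microfractured ones, and the difference of -1.60 did not pass the test without the filter (limma adjusted p = 0.070). Csf1r, the receptor for the macrophage growth factor, read 132, 153 and 95.7 after microfracture, against 376, 354 and 358 in uninjured cells, without overlap (-1.43 ± 0.38, adjusted p = 0.0135). On every uninjured array both Csf3r and Csf1r lay under the 90th percentile of the olfactory and vomeronasal genes, the range of genes that bone does not usually express.

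Cd14, a co-receptor for bacterial lipopolysaccharide, stood apart from the rest of the receptors. It read 1057, 1304 and 1082 on the microfractured arrays, against 859.7, 1597 and 1750.2 on the uninjured arrays. The groups overlapped and the difference was -0.23 ± 0.51 (limma adjusted p = 0.77). Clec4d, a C-type lectin for microbial glycolipids, fell by 1.71, and Fpr1, the formyl peptide receptor, fell by 1.79.

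All 4 Fc receptor and adaptor genes fell. Fcgr1, the high-affinity receptor for IgG, had a log2 difference of -2.76 without the filter, and Fcgr3, a low-affinity one, of -1.26. Fcer1g, their shared signalling chain, differed by -2.02 and Tyrobp, an adaptor of many myeloid receptors, by -1.33. Tyrobp read 454, 314 and 456 on the microfractured arrays, against 1223, 1166 and 784 on the uninjured arrays, without overlap. The beta 2 integrin genes Itgb2 (-2.12) and Itgam (-1.804 without the filter), which together encode a complement receptor and adhesion molecule, both fell. Itgam read 159, 97.0 and 44.7 after microfracture, against 448, 223 and 444 in uninjured cells, again without overlap. Cd68, a lysosomal glycoprotein of macrophages, read 150.2, 129 and 106 after microfracture, against 152, 258 and 275 in uninjured cells, and did not pass the test (-0.73, limma adjusted p = 0.10 without the filter). Fcgr1 and Cd68 lay under the 90th percentile of the olfactory and vomeronasal genes on every uninjured array.

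Of the transcription factor genes, Spi1 read 289.8, 149 and 71.6 on the microfractured arrays, against 295, 427 and 478 on the uninjured arrays (-1.31 ± 0.43, limma adjusted p = 0.0330). Cebpa read 519.6, 332 and 403 after microfracture, against 649, 599 and 587 in uninjured cells (-0.55 ± 0.26, adjusted p = 0.12). Neither overlapped between the groups, and Spi1 alone passed the test. The 4 genes of the phagocyte oxidase, which makes superoxide, all fell. Their log2 differences were -1.88 for Cybb, its membrane subunit, -1.48 and -2.02 for its cytosolic subunits Ncf1 and Ncf4, and -1.91 for Rac2, its small GTPase. Cybb read 717, 195 and 642 on the microfractured arrays, against 1873, 1759 and 1505 on the uninjured arrays. Rac2 read 195, 177 and 153 after microfracture, against 831, 692 and 592 in uninjured cells. Both were lower on every microfractured array, and replicate 2 was the lowest for Cybb. All 6 general leukocyte genes fell without the filter. The differences were -2.04 for Coro1a, an actin regulator, -1.93 for Lcp1, the actin bundler L-plastin, -1.74 for Laptm5, a lysosomal membrane protein, -1.64 for Plek, the signalling protein pleckstrin, -1.53 for Cd52, a surface glycoprotein, and -1.28 for Vav1, a signalling protein of blood cells. Coro1a read 331, 115 and 168 after microfracture, against 845, 953 and 681 in uninjured cells. Vav1 lay under the 90th percentile of the olfactory and vomeronasal genes on every uninjured array.

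**Figure D3:**
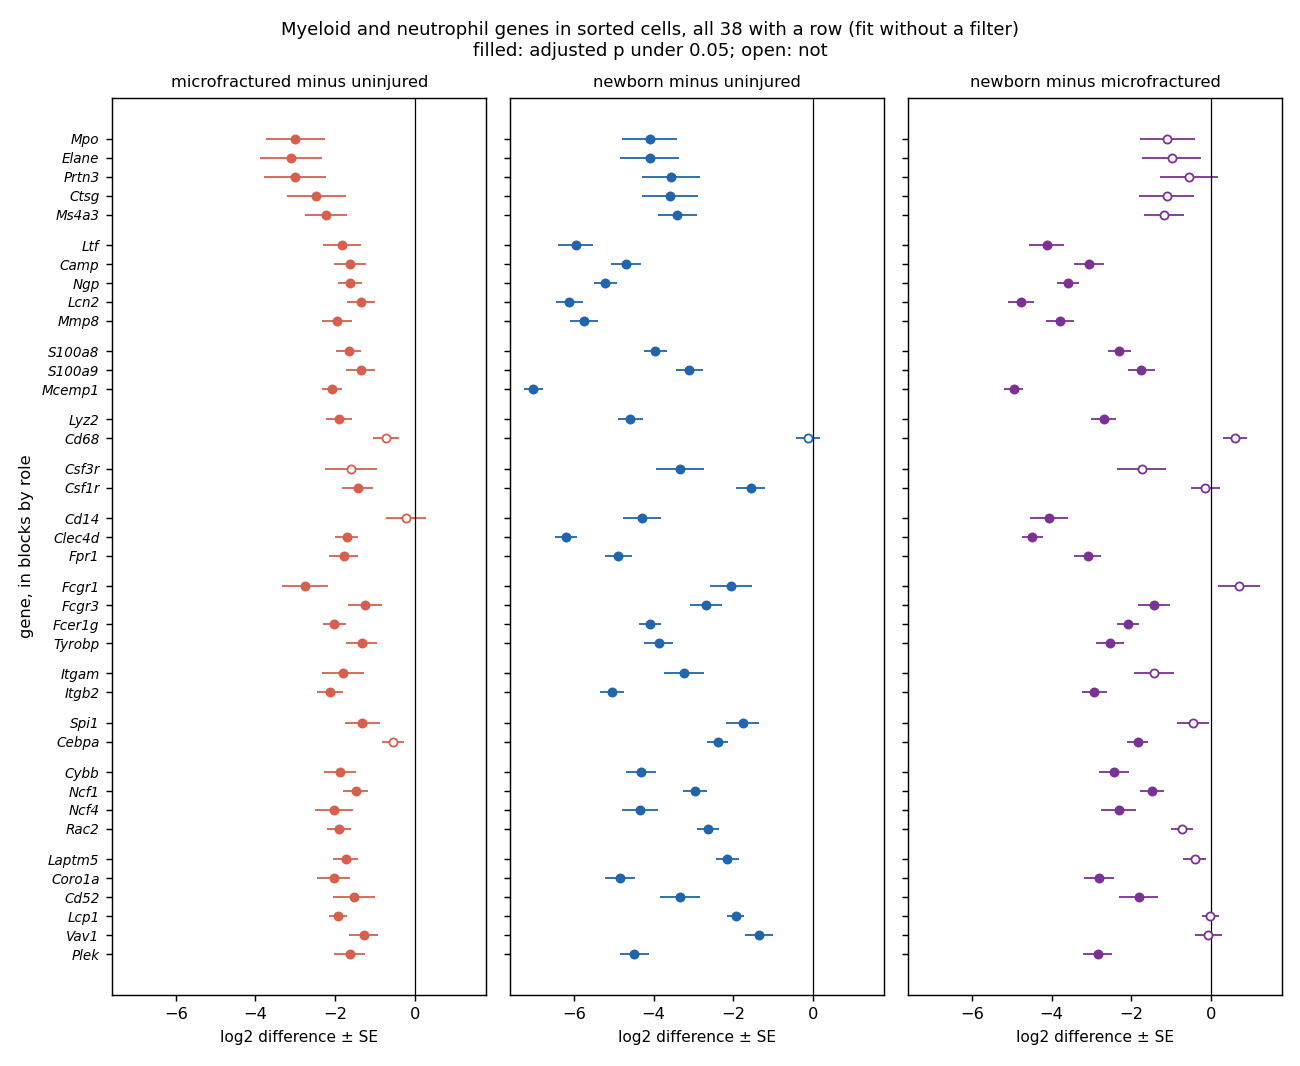
Log2 difference of each member gene in the sorted-cell comparisons, grouped by role. Points are differences of log2(intensity + 16) and bars are standard errors. Nearly all points lie below 0. In the newborn minus microfractured comparison the primary granule genes lie between -0.55 and -1.17 and the secondary and tertiary granule genes between -3.06 and -4.77.

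In newborn sorted cells nearly every member was lower than in uninjured cells. Relative to uninjured sorted cells, 37 of the 38 genes fell without the filter, where 37.2% of all genes fell and 52.9% were called in either direction, and 32 of 32 fell with it, where the shares were 29.4% and 54.6%. Of those 32, Prtn3, Csf1r, Ncf1, Ncf4 and Rac2 passed the filter through uninjured arrays alone and so had to differ. The median log2 difference was -3.91 over the 38 members and -0.52 over all genes, both without the filter. The olfactory and vomeronasal receptor genes also read lower, with array medians of 17.1 to 27.5 on newborn and 119 to 216 on uninjured arrays. Cd68 was the exception, at 239.9, 212, 211 and 156 on the 4 newborn arrays, against 152, 258 and 275 on the uninjured arrays (-0.12, limma adjusted p = 0.76). The largest falls were in Mcemp1 (-7.02 ± 0.23, adjusted p = 2.5e-09), Clec4d (-6.20 ± 0.26, 8.5e-09) and Lcn2 (-6.11 ± 0.34, 7.0e-08). A pseudocount of 16 and the low intensities of newborn arrays bound how large such a difference can be.

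Mcemp1 read 16.4, 17.96, 18.5 and 19.0 on the newborn arrays, against 4219, 4540.4 and 4430.3 on the uninjured arrays. Ltf read 109, 207, 199 and 87.8 in newborn cells, against 12139, 11722 and 6539 in uninjured cells (-5.95 ± 0.45). Neither gene overlapped between the groups. Camp read 467, 575, 579.9 and 468 on the newborn arrays, and Ngp read 275, 435, 282 and 293. S100a8 read 590.4, 726, 733 and 923, against 8919 to 13698 on the uninjured arrays, with a difference of -3.96. S100a9 read 802, 1216, 1094 and 1149.6, against 5613 to 12452 on the uninjured arrays, with a difference of -3.10. No newborn array reached the lowest uninjured array for either calprotectin gene. Lyz2 read 585, 775, 628 and 686 in newborn cells, against 14976 to 18939 in uninjured cells.

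Among the general leukocyte genes Lcp1 stood apart, at 1199.5, 936, 870.5 and 1206 on the newborn arrays, against 4452, 3919 and 3780.4 on the uninjured arrays. Ctsg read 71.3, 12.6, 17.4 and 19.1, Csf3r read 5.21, 43.6, 7.21 and 5.03, and Itgam read 34.5, 11.03, 9.94 and 52.2. Tyrobp read 127, 47.6, 31.2 and 46.7, against 784 to 1223 in uninjured cells. Cybb read 86.8, 86.2, 67.3 and 48.9 in newborn cells, and Rac2 read 82.8, 144, 97.5 and 83.3. Coro1a read 13.6, 13.9, 8.92 and 15.8 in newborn cells, against 681 to 953 in uninjured cells. Many of these newborn values lie under the 90th percentile of the receptor genes on the same arrays. Spi1 read 118, 127, 68.6 and 114 in newborn cells, Csf1r read 118, 199, 58.3 and 110.5, and Cebpa read 104, 129, 75.2 and 111. Csf1r and Spi1, which mark more than the neutrophil branch, had the smallest falls among the genes that passed the filter (-1.56 ± 0.36 and -1.76 ± 0.40).

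Set against microfractured cells, newborn cells had 23 of the 38 genes lower without the filter, where 11.8% of all genes fell and 22.9% were called, and 23 of 32 with it, where 18.3% fell and 36.7% were called. No member rose. Mcemp1 (-4.96 ± 0.23, limma adjusted p = 1.9e-08), Lcn2 (-4.77 ± 0.34, 5.4e-07) and Clec4d (-4.49 ± 0.26, 8.3e-08) had the largest falls. All 5 secondary and tertiary granule genes fell, with differences of -3.06 for Camp, -3.58 for Ngp, -3.79 for Mmp8 and -4.13 for Ltf beside that of Lcn2. None of the 5 primary granule genes passed the test. Their differences were -0.55 for Prtn3, -0.98 for Elane, -1.09 for Mpo, -1.11 for Ctsg and -1.17 for Ms4a3, with limma adjusted p between 0.085 and 0.63.

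The primary granule genes overlapped between the groups. Mpo read 55.8, 92.7, 132 and 83.5 on the newborn arrays, against 1178, 108 and 57.3 on the microfractured arrays. Elane read 35.5, 33.9, 8.71 and 27.2 in newborn cells, against 420.3, 13.4 and 24.7 in microfractured cells. Prtn3 read 18.1, 17.4, 15.7 and 15.0 in newborn cells, against 249, 4.59 and 3.80 in microfractured cells. Elane, Prtn3 and Ctsg lay under the 90th percentile of the receptor genes on all 4 newborn arrays and on microfractured replicates 2 and 3, so no order can be read among these values. Mpo and Ms4a3 lay under it on some of these arrays. Without microfractured replicate 1 none of the 5 primary granule genes passed the test (limma adjusted p 0.33 to 0.90). The same omission left the later granule genes lower in newborn cells, with differences of -3.67 for Ltf and -3.26 for Ngp.

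The other members not called in this comparison were Csf1r (-0.13), Spi1 (-0.45), Laptm5 (-0.41) and Lcp1 (-0.01) among those past the filter. Fcgr1 and Cd68 had higher means in newborn than in microfractured cells, with differences of 0.71 and 0.61 that did not pass the test without the filter (limma adjusted p = 0.40 and 0.19). For Cd68 the 4 newborn arrays (156 to 240) all lay above the 3 microfractured arrays (106 to 150.2). Rac2 was at the threshold (-0.72 ± 0.27, adjusted p = 0.0491) and was not called without the filter (0.084). Cd14 separated the groups differently from the primary granule genes. It read 84.5, 140.3, 40.2 and 10.2 on the newborn arrays, against 1057, 1304 and 1082 on the microfractured arrays (-4.06 ± 0.48, adjusted p = 3.0e-05), while microfractured and uninjured cells overlapped. Cebpa likewise fell in newborn relative to microfractured cells (-1.84 ± 0.24, adjusted p = 7.7e-05).

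Across the 3 sorted groups, 22 of the 38 genes had every newborn array below every microfractured array and every microfractured array below every uninjured array, an order found without overlap in 3.16% of all genes. The group means followed that order for 36 of the 38, the exceptions being Fcgr1 and Cd68. Summed over the 38 genes, intensity was 6132 to 7598 on newborn arrays, 58329, 23271 and 41039 on microfractured replicates 1, 2 and 3, and 98571 to 139258 on uninjured arrays. The members made up 0.055% to 0.067%, 0.22% to 0.50% and 0.90% to 1.24% of the array's summed intensity.

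A second list of 47 myeloid genes, none of them members, was set beside these counts, with 43 in the table and 31 past the filter. Of the 31, 6 passed the filter through uninjured arrays alone and so had to differ. After microfracture 27 of the 43 fell without the filter, beside the 26% of all genes given above. With the filter 22 of the 31 fell, beside 19.8% of the genes tested. In both fits 1 rose, Klf4 (0.53, limma adjusted p = 0.023), a factor also used by many cells outside blood. The smallest adjusted p of that list was for Cd33, a sialic acid-binding receptor (-2.36 ± 0.29, adjusted p = 0.00055). The secreted protein Wfdc21 (-2.04) and Padi4, which citrullinates histones (-2.34), also fell. In newborn cells 28 of the 31 fell and 1 rose relative to uninjured cells, beside 29.4% and 25.2% of the genes tested. Relative to microfractured cells 24 of the 31 fell in newborn cells, beside 18.3%. Il1b, the cytokine interleukin 1 beta, averaged 45.3 ± 37.9 in newborn cells (SD, n = 4), 1414 ± 384 in microfractured cells (SD, n = 3) and 4767 ± 114 in uninjured cells (SD, n = 3). Without the filter, 15 of 19 lymphocyte genes and 13 of 15 erythroid genes fell after microfracture, beside 26% of all genes. Relative to microfractured cells, 2 of 19 lymphocyte genes and 9 of 15 erythroid genes fell in newborn cells, beside 11.8% of all genes.

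In bulk bone the values are the authors' scores, which run from -100 to 100, and differences are in score points with no fold. No gene of 16550 tested was called between microfractured and uninjured bulk tissue (0%), and accordingly 0 of the 35 members tested were called by limma. Csf3r, Cd14 and Cebpa did not pass the filter. At an unadjusted p under 0.05, 2 members were lower, Laptm5 (-41.4 ± 15.2, limma adjusted p = 0.44) and Ncf1 (-39.9 ± 16.4, adjusted p = 0.47). Ngp had the next smallest p (-29.5 ± 16.4, adjusted p = 0.59). In bulk tissue fewer cells of a type and less RNA per cell cannot be told apart. The difference was below 0 for 29 of the 35, with a median of -10.9 beside 2.34 over all genes tested. The arrays did not overlap for 7 of the 35 members tested, all lower after microfracture, where 4.54% of the 16550 genes tested were lower without overlap.

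Those 7 were Lyz2, Mpo, Ngp, S100a9, Cybb, Ncf1 and Lcp1. Mpo scored 14.8, 21.5 and 14.3 on the microfractured bulk arrays, against 60.5, 31.4, 37.3, 37.0 and 44.6 on the uninjured arrays, a difference of -25.3 ± 15.3. Ncf1 scored 11.9, 27.4 and 3.91 after microfracture, against 62.6, 47.9, 40.4, 52.9 and 67.6 in uninjured bone. All microfractured arrays were below all uninjured arrays for these genes, yet the differences did not pass the test over all genes (limma adjusted p = 0.62 and 0.47). Elane overlapped, at 16.3, 11.1 and 44.1 after microfracture, against 43.5, 9.72, 31.4, 22.6 and 66.5 in uninjured bone. Cd68 (20.2 ± 17.8), Fcgr1 (20.0 ± 20.0) and Fcer1g (8.95 ± 16.2) had the largest positive differences, none of which passed the test.

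Newborn bulk bone had 26 of the 35 members lower than uninjured bulk bone, where 6.35% of all genes were called and 4.34% fell. The count was 16 when these 2 groups were fitted alone, 13 without uninjured replicate 3 and 14 without uninjured replicate 2 or replicate 4. In these fits 4.56%, 3.61%, 3.74% and 3.84% of all genes were called, in the order named. The median difference was -76.6 score points over these members and 0.16 over all genes tested. Mcemp1 scored -10.5, -34.4 and -15.0 on the newborn arrays, against 94.8, 96.5, 97.2, 96.2 and 95.4 on the uninjured arrays (-116 ± 10.3, limma adjusted p = 0.0007). Plek scored -12.0, -18.6 and -56.4 in newborn bone, against 90.3, 81.4, 78.5, 86.1 and 90.2 in uninjured bone (-114 ± 15.1, adjusted p = 0.0026). The groups lay far apart for both genes. The differences of Fpr1 (-112 ± 21.5, adjusted p = 0.0128) and Ctsg (-106 ± 15.9, adjusted p = 0.0042) also passed.

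By role, 4 of 5 primary granule and 4 of 5 secondary and tertiary granule genes fell in newborn bulk bone, beside 4.34% of genes tested. So did 3 of 3 late neutrophil products, 4 of 4 oxidase genes and 3 of 4 Fc receptor and adaptor genes. Pattern and chemoattractant receptors had 2 of 2 lower and transcription factors 1 of 1. Counts were less complete for general leukocyte genes (3 of 6), lysosomal and macrophage genes (1 of 2), beta 2 integrins (1 of 2) and growth factor receptors (0 of 1). Camp scored 32.4, -99.99 and 31.0 on the newborn arrays, against 89.6, 77.6, 79.8, 79.3 and 85.6 on the uninjured arrays. It was not called (-94.6 ± 26.6, limma adjusted p = 0.062). Prtn3 (-55.9 ± 18.4, adjusted p = 0.11) was the primary granule gene not called. Relative to microfractured bulk bone, 6 of the 35 members fell in newborns, where 1.46% of all genes were called and 1.06% fell. They were Mcemp1 (-113 ± 11.5, limma adjusted p = 0.0037), Plek (-108 ± 16.8, 0.0127), Ctsg (-95.1 ± 17.8, 0.0265), Itgb2 (-86.0 ± 16.8, 0.0333), Cybb (-81.0 ± 16.5, 0.0396) and Fcgr3 (-85.6 ± 17.7, 0.0421). That count was 0 when these 2 groups were fitted alone, where 0 of 16550 genes were called, a loss not particular to the members. The count was 1 without microfractured bulk replicate 3 and 3 without uninjured replicate 2 or 4. It was 2 without microfractured replicate 1 or 2, newborn replicate 3 or uninjured replicate 3. With these single arrays left out, 0.453% to 1.2% of all genes were called.

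**Figure D4:**
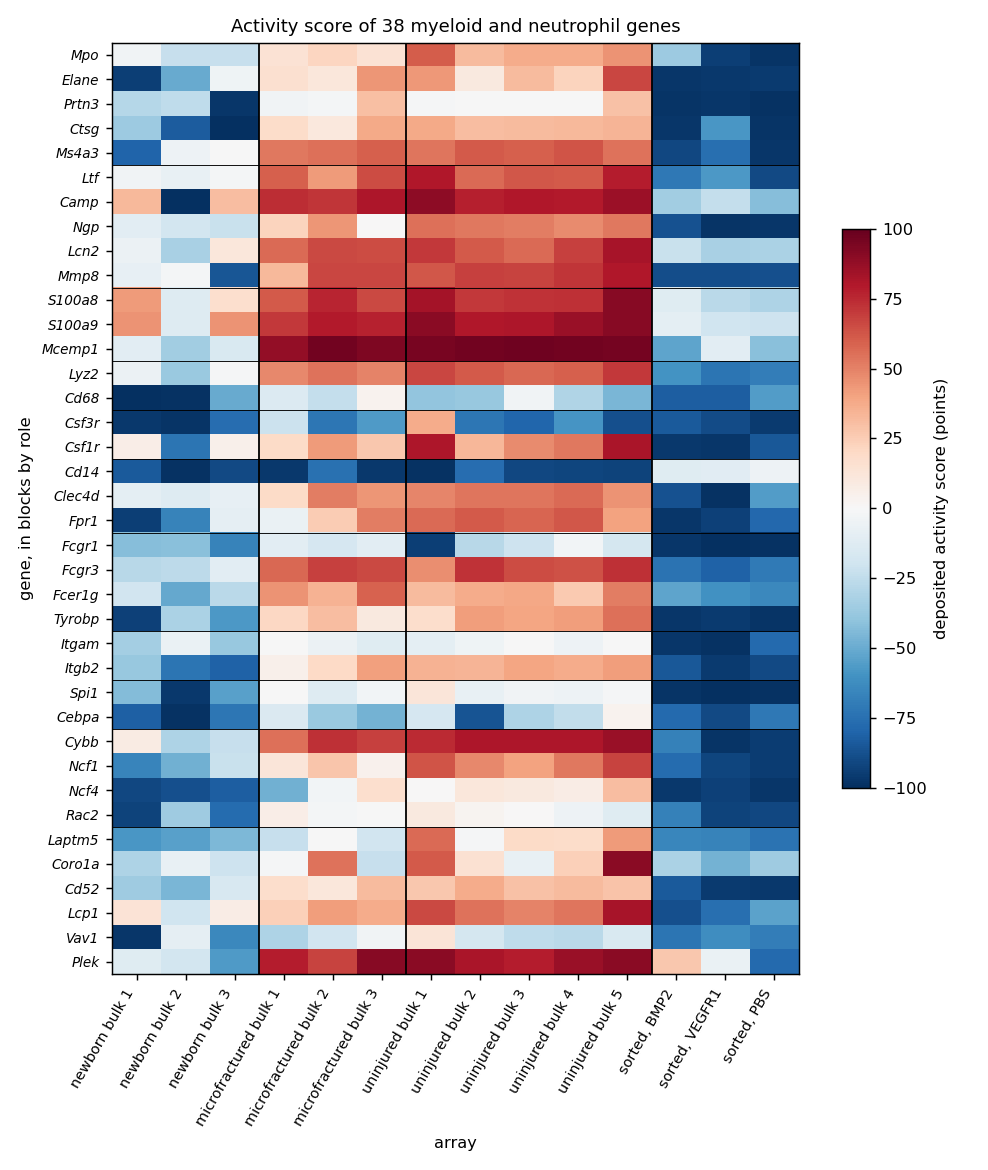
Score of the member genes on each bulk and factor array, with newborn, microfractured and uninjured bulk arrays and the BMP2, VEGFR1 and PBS sorted-cell arrays. Rows are genes in blocks by role, columns are arrays, and colour gives the score. Array medians are -34.9 to -22.9 in newborn bulk, 17.7 to 34.3 in microfractured bulk and 36.8 to 52.1 in uninjured bulk, and -80.1, -88.9 and -81.5 on the BMP2, VEGFR1 and PBS arrays.

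On the factor arrays the members had low scores. Their median was -80.1 with BMP2, -88.9 with VEGFR1 and -81.5 with PBS, where the median of all genes was -21.8, -19.4 and -18.5. Scores were under -50 on all 3 arrays for 29 of the 38 members. For 35 of the 38, all 3 sorted arrays lay below every adult bulk array, as 17.3% of all genes did. Skeletal cell genes had medians of 75.6, 81.9 and 77.4 on the same 3 arrays. Low medians were not particular to the members. Erythroid genes had -89.4, -74.3 and -89.1, megakaryocyte genes -80.9, -89.3 and -91.5, and lymphocyte genes -70.8, -70.1 and -70.7. Osteoclast genes had -95.3, -64.3 and -78.6, endothelial genes -85.3, -88.0 and -89.1, and the second list of myeloid genes described above -63.3, -65.7 and -63.6. Cd14 alone among the members lay above every bulk array, at -12.5 with BMP2, -11.5 with VEGFR1 and -5.03 with PBS, beside -98.9 to -74.8 on the 11 bulk arrays. S100a9 (-9.64, -20.1 and -20.7) and S100a8 (-11.8, -27.2 and -30.8) were also among the higher members.

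With 1 array per treatment there is no test, and members 50 score points or more apart are named as values. Between BMP2 and PBS they were Plek (26.6 with BMP2, against -78.0 with PBS, a difference of 104.7) and Mpo (-36.3 with BMP2, against -97.9 with PBS, a difference of 61.6), followed by Cybb (27.3), Rac2 (23.2) and S100a8 (19.0). No member was 50 points lower with BMP2, and 5.25% of all genes were as much higher and 6.35% as much lower. The other primary granule genes, Elane, Prtn3, Ctsg and Ms4a3, differed by -2.14 to 5.78 points. Between VEGFR1 and PBS, Plek (71.0) was the single member past 50 points, where 5.4% of all genes were as much higher, followed by Ctsg (39.9), Ltf (32.9), Mcemp1 (31.4) and Ms4a3 (21.6). With BMP2 the most negative differences from PBS were those of Lcp1 (-34.3), Clec4d (-31.5), Cd68 (-26.5), Itgam (-19.4) and Fpr1 (-19.2). With VEGFR1 they were those of Clec4d (-43.1), Cd68 (-26.1), Lcp1 (-21.8), Itgam (-20.97) and Cebpa (-18.6). Between BMP2 and VEGFR1, Mpo (57.6) was the single member past 50 points, where 5.34% of all genes were as much higher. A count of 1 or 2 of 38 is close to these shares.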

How the data were processed

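Affymetrix arrays measured RNA from sorted skeletal stem cells and crushed bone of the mouse distal femur. Values of the 10 sorted-cell arrays in replicated groups are linear intensities that the authors deposited with 1 row a gene (18052 genes), summarised by MAS5 per the submitters' processing notes. For the 11 bulk and 3 factor arrays the authors deposited a score from -100 to 100 for each of 45101 probe sets. How that score was computed is not given in the sources used here. For each gene the single-symbol probe set with the highest mean score was used (38557 probe sets name 1 gene, 860 several and 5684 none), which gave 20889 genes. Symbols were updated through RefSeq identifiers and synonyms (17994 of 18052 genes matched by identifier), among them Spi1 and Mcemp1 in the score table. Each table was deposited in 2 copies that differed in 0 values.

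Intensities were analysed as log2(intensity + 16) and scores as deposited, with limma 3.58.1 in R 4.3.3 (lmFit, eBayes with a variance trend). The 3 groups of a table were fitted together, tests were 2-sided, and p-values were adjusted by Benjamini-Hochberg across the whole table. The threshold was 0.05. A gene was tested when it exceeded the median of all values (intensity 250.4, score -16.4) in at least 3 arrays, which left 10893 and 16550 genes. The same fit without the filter covers every member. The number of arrays, 3 to 5 in most groups, limits the precision. The fit was tested on simulated data. Factor arrays had 1 array a treatment and no test. Promoters came from a RefSeq table of build GRCm38.p6.

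All 40 genes are named under their roles, with values on every sorted array for the main granule genes and at least 1 gene of nearly every other role, and with full statistics for the 3 largest falls in each comparison. Of other myeloid genes, those with the smallest p are named, except 1 gene that is not reported here. The members, the roles and the other gene lists were chosen with earlier results of these data known. Replicate numbers were not used as pairs, since same-numbered sorted arrays correlated by -0.04 to 0.28 and bulk arrays by -0.22 to 0.12 in their deviations from group means. Alternatives covered the pseudocount, the filter, scaling, probe set choice, the variance trend, a replicate block, fits of 2 groups alone and leaving out each array. Leaving out microfractured replicate 1 without the filter was added after the data had been seen.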

Additional observations from a re-analysis of the deposited data

Results flagged for a closer look

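In newborn sorted cells, 1 of the 4 arrays lay far above the other 3 for 5 member genes: Ctsg at 71.33 in replicate 1, Ngp at 434.77, Csf3r at 43.61 and Ms4a3 at 101.78 in replicate 2, and Mmp8 at 44.29 in replicate 4. All but the Ngp value lay under the 90th percentile of the olfactory and vomeronasal receptor genes on the same array.

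In uninjured bulk bone, 1 of the 5 arrays lay far from the other 4 for 5 genes. Prtn3 scored 29.18 on replicate 5, Csf3r 37.22 and Vav1 12.69 on replicate 1, each above the rest, while Fcgr1 scored -94.06 on replicate 1 and Fpr1 39.98 on replicate 5, each below the rest. Chance alone marks about 1 group in 20, and 10 of 76 groups were marked here.

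Cd68 averaged 204.6175 in newborn sorted cells, with every array above every microfractured array, whereas its bulk scores were lower in newborn bone (-99.8, -98.9 and -50.1) than in microfractured bone (-13.8, -23.5 and 3.67). The difference between sorted cells and bulk tissue was not tested.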

How the results depend on the processing

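Under the alternatives run, no called member changed direction. In sorted cells the reported counts were 30, 32 and 23 members lower (microfractured against uninjured, newborn against uninjured, newborn against microfractured). Those fits called 33.1%, 54.6% and 36.7% of the genes tested. A filter at the 75th percentile left 21 members lower, all of those tested, in newborn against uninjured cells, where 59.3% of genes were called. Centring on the array median gave 22, 32 and 23, with the median of all genes at 0.61, 0.68 and 0.10. It called 53.3%, 68.8% and 35.1% of the genes tested. Quantile normalization gave 26, 32 and 22, where 25.7%, 51.2% and 29% were called. Leaving out 1 array gave 17 to 30, 27 to 32 and 20 to 23 members lower. The shares of genes called were then 18.4% to 38.7%, 43.6% to 58.1% and 30% to 41.4%. The count of 17 came from leaving out uninjured replicate 1 or 2, which also took 5 members under the filter.

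In bulk bone, no member was called between microfractured and uninjured tissue under any alternative. For newborn against uninjured bone the count was 15 with the filter at the 75th percentile, 16 with the 2 groups fitted alone, 0 with a replicate block and 13 to 23 when 1 array was left out. For newborn against microfractured bone it was 2 with the stricter filter, 10 with the median of the gene's probe sets, 2 with the probe set of highest variance, 13 with no variance trend, 0 with a replicate block, 0 with the 2 groups alone and 1 to 7 when 1 array was left out. The stricter filter called 7.2% of the genes tested for newborn against uninjured bone and 1.44% for newborn against microfractured bone. In the latter, the median of probe sets called 2.41%, the highest variance 1.24% and no variance trend 2.52%. Leaving out 1 array called 3.61% to 6.41% and 0.453% to 2.11% in the 2 comparisons. Each count of 0 for newborn bone came with 0 of 16550 genes called, a loss not particular to the members. The cause was not tested. In sorted cells the replicate block gave 30, 32 and 22, where 30.1%, 48.1% and 31.8% of the genes tested were called. With the median of probe sets, 1 member differed by 50 points between BMP2 and PBS and 0 between VEGFR1 and PBS. Gene by gene in sorted cells, 47 of 614 values after microfracture, 0 of 614 for newborn against uninjured cells and 14 of 614 for newborn against microfractured cells lost the call, 1 gained it in the last of these and 0 reversed. In bulk bone 123 of 678 values for newborn against uninjured and 54 of 678 for newborn against microfractured lost it, and 10 and 16 gained it.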

Other observations

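Of the second list of myeloid genes, 4 with further known roles are given here, chosen after their values were seen. Their group means followed the order newborn, microfractured, uninjured, from low to high. Chil3, a chitinase-like secreted protein of neutrophils and macrophages, averaged 168 ± 41.3 in newborn cells (SD, n = 4), 2364 ± 1152 in microfractured cells (SD, n = 3) and 6156 ± 749.96 in uninjured cells (SD, n = 3). Cxcr2, the chemokine receptor by which neutrophils leave the marrow, averaged 12.6 ± 12.8 in newborn cells, 229 ± 226 in microfractured cells and 992 ± 463 in uninjured cells, and fell in all 3 comparisons. C5ar1, the receptor for complement fragment C5a, averaged 16.9 ± 11.6 in newborn cells, 548 ± 113 in microfractured cells and 1186 ± 308 in uninjured cells. Mmp9, gelatinase of tertiary granules and osteoclasts, averaged 49.9 ± 32.0 in newborn cells, 1036 ± 716 in microfractured cells and 2101 ± 137 in uninjured cells. Its fall after microfracture did not pass the test (-1.22 ± 0.46, limma adjusted p = 0.058), while its newborn values fell against both adult groups.

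Klf4 ran the other way. It averaged 4649 ± 141 in newborn cells, 3780 ± 342 in microfractured cells and 2614 ± 285 in uninjured cells, and was higher than in uninjured cells both in newborn cells (0.83 ± 0.15, limma adjusted p = 0.00055) and after microfracture (0.53 ± 0.16, adjusted p = 0.0234).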
